A study of Drosophila melanogaster with 6 samples.

Results

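The RNA of the wild-type Drosophila melanogaster ovary is described here from 3 libraries of the stock wBerlin, out of 6 libraries in the series. All 13000 gene rows of the table of normalized counts were taken and ranked by the mean of the 3 wild-type columns, so the measured values set the order of the genes described. The table holds 13216 rows in all, the other 216 being repeats. The remaining 3 libraries of the series, from a mutant group, were not used, so every statement concerns a single group and no contrast was tested. The wild-type females were collected at 0 to 2 days, given wet yeast for 24 hours at 25 °C and had an age of 1 to 3 days. The kit kept RNA down to 18 nt, ribosomal RNA was depleted and the libraries were strand-specific. The labels do not say how many females were pooled or whether the libraries came from separate cultures, so the spread between libraries may be partly technical.

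An ovary of the fly is a bundle of egg chambers of increasing age. In each chamber the nurse cells of the germline make the RNA and ribosomes that the oocyte stores for the embryo, while the surrounding somatic follicle cells make yolk protein and then the vitelline membrane and the chorion of the eggshell. A muscle sheath encloses the whole organ. In RNA from a whole organ, fewer cells of a type and less RNA per cell cannot be told apart.

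The counted rows held 47726399, 44275289 and 41799533 reads in replicates 1, 2 and 3. For each pair of libraries the reads differed by more than sampling noise, with a chi-square per degree of freedom of 84.2 for replicates 1 and 2, 25.2 for 1 and 3 and 67.9 for 2 and 3, so each counted as a sample of its own. Replicate 2 thus stood further from the other libraries than they did from each other. Tissue markers went with the label. All 10 germline markers and all 10 follicle cell markers had at least 10 normalized counts in every library, with summed levels of 207441 to 238483 and 585431 to 730571. The highest were osk and otu for the germline and Cp38 and Cp36 for follicle cells. The 10 markers of ovarian and oviduct muscle were also all detected, Tm1 and Act57B being the highest, with sums of 61351, 62947 and 80407 in replicates 1, 2 and 3. Of 6 testis markers only a pair passed, the phosphatase gene twe, whose protein acts in female meiosis too, and mia. Of 7 markers of the nervous system 3 passed, led by Sap47 and elav, with sums of 3500 to 3957. The 7 gut markers, led by Jon25Bi and betaTry, summed to 922, 7117 and 447 normalized counts, which sets replicate 2 apart again. Fat body markers, led by CG3523 (FASN1) and Rfabg, summed to 28044, 29322 and 34320 (8 of 8 detected), hemocyte markers, led by crq and srp, to 12608, 13185 and 12083 (5 of 6) and markers of oviduct and accessory glands, led by Hr39 and Oamb, to 5896, 5208 and 5063 (3 of 5).

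Messenger RNA made up nearly all of the counted reads. All shares of reads given here are of the reads counted on the 13216 rows. Those rows hold no mitochondrial genome, and ribosomal RNA was depleted, so the shares are not the composition of ovary RNA. Its 11588 rows took 93.1%, 89.9% and 92.9% of the reads in replicates 1, 2 and 3 (92.0% ± 1.82, SD, n = 3). Rows of ribosomal RNA and its pseudogenes came next with 3.26%, 6.49% and 3.70%, although the libraries had been depleted of it. The low messenger share and the high ribosomal share both belonged to replicate 2. With the 7 ribosomal rows left out, messenger RNA took 96.2%, 96.1% and 96.5% of what remained, a spread of 0.191 percentage points (SD, n = 3).

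The structural and catalytic RNAs were few in rows and high in reads. The RNA of the signal recognition particle, which targets secreted proteins to the endoplasmic reticulum, took 1.42% ± 0.115 (SD, n = 3) of reads in 2 rows. RNase MRP and RNase P RNA, which process ribosomal and transfer RNA precursors, took 0.414% ± 0.0539, with replicate 2 highest at 0.473%. The 7SK RNA, which holds back the elongation factor P-TEFb, took 0.168% ± 0.0156 from 1 row and was highest in replicate 3. Long non-coding RNA had 672 rows and 0.349% ± 0.0109 of reads. With classes read from symbol prefixes alone, which places the ribosomal pseudogene rows here, it was 4.797%. By the annotation, 168 of those rows (25.0%) had at least 10 normalized counts in every library. The 284 rows of small nucleolar and Cajal body RNAs, guides for the modification of other RNAs, took 0.270% ± 0.00746, and 221 of them were detected. Spliceosomal snRNAs took 0.116% ± 0.0105 in 28 rows. Antisense RNAs held 0.0250% in 253 rows and precursors of microRNAs 0.00390% in 100 rows.

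**Figure D1:**
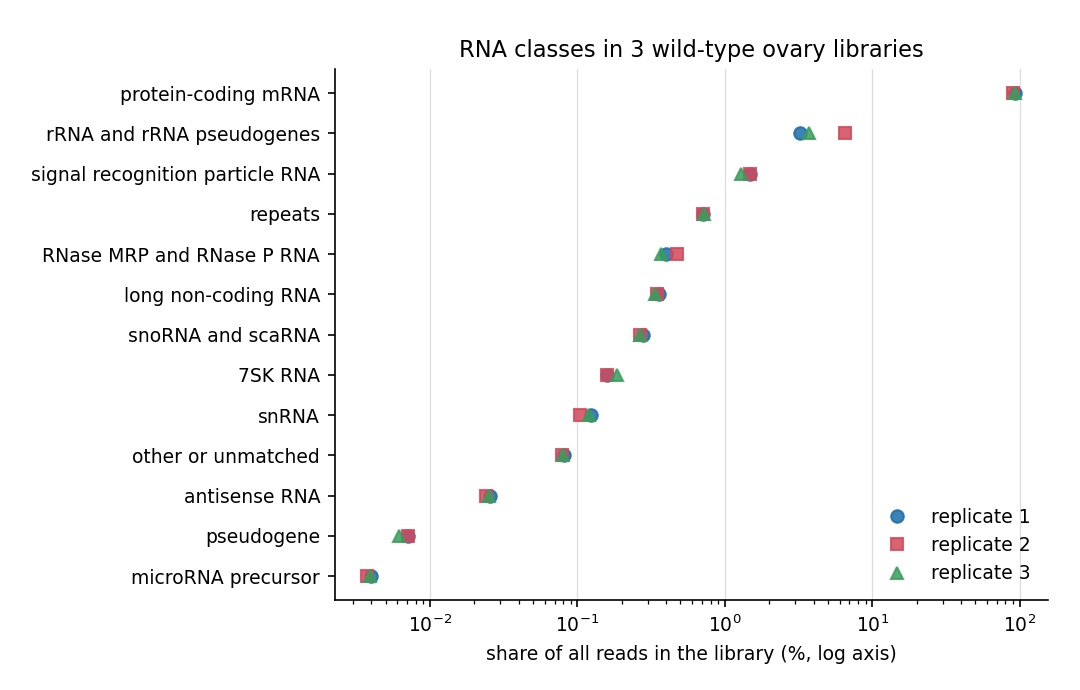
Share of all counted reads taken by each RNA class in the 3 wild-type libraries, on a log axis in percent; blue circles, red squares and green triangles are replicates 1, 2 and 3. Messenger RNA lies near 92.0% in each library, and the class whose points lie furthest apart is ribosomal RNA, at 3.26%, 6.49% and 3.70%.

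Ribosomal reads fell almost entirely on a single pseudogene row. CR41602, annotated as an 18S rRNA pseudogene on X, had 1291086, 2812323 and 1534817 normalized counts and held 91.3% of the class. Replicate 2 lay far above the other libraries, which did not differ much. CR41609, a 28S rRNA pseudogene on X, had 119411, 171903 and 106855. These rows resemble the ribosomal genes themselves, so their reads cannot be assigned to the pseudogene rather than to the repeated rRNA genes. Without replicate 2 the class share was 3.48% in place of 4.48%.

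Among the other abundant non-coding RNAs the copies were close to equal. The 7SL copies 7SLRNA:CR32864 and 7SLRNA:CR42652, both of 299 nt on 3R, had 332298 ± 30791 and 315834 ± 25506 (SD, n = 3) normalized counts, and the split between near-identical copies is uncertain. RNaseMRP:RNA had 160000, 200324 and 148565 normalized counts. RNaseP:RNA had 18852, 21270 and 19121. Per kb of exon these are 444057 ± 71178 and 66046 ± 4433, so the MRP RNA stood above the P RNA in every library.

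Each of the smaller classes was led by a few rows. CR34335, a long non-coding RNA of 361 nt on X, held 25.5% of the long non-coding reads with 39352, 45882 and 36392 normalized counts. Hsromega, the long non-coding RNA of a heat shock locus on 3R, followed with 20237, 20525 and 19830. Its relative SD (the SD as a percentage of the mean) was 1.73%. Of the small nucleolar RNAs, snoRNA:Psi18S-1820 had 27888, 30007 and 25706, which is 22.6% of its class and 199050 ± 15362 normalized counts per kb. The row names it as a guide of pseudouridine in 18S rRNA. Among spliceosomal RNAs the 3 U2 copies snRNA:U2:34ABa, snRNA:U2:34ABc and snRNA:U2:34ABb led with means of 8273, 7870 and 7813, and reads cannot be divided between such copies with certainty. The minor spliceosome was present as well, with means of 6208 for snRNA:U11 and 3282 for snRNA:U12:73B.

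Repeats took 0.709%, 0.709% and 0.720% of reads in replicates 1, 2 and 3, a relative SD of 0.861%, and this was 1.72% with the ribosomal rows left out of the total. LTR elements made up 0.463% ± 0.0144 of all reads over 132 rows and LINE elements 0.0956% ± 0.00269 over 38 rows. The steady sum hid single elements that moved. The internal part of TIRANT, a Gypsy-type LTR element, had 56583, 64128 and 78294 normalized counts and was highest in replicate 3. That of Copia had 56695, 53655 and 32128 and was lowest there. HETA, a telomere-specific LINE element, had 5005, 5178 and 5445. R2_DM, a LINE element that inserts in 28S rRNA genes, and NTS_DM, the row of the rRNA gene spacer, were both highest in replicate 2, at 15114 and 46944 against 10324 and 30391 in replicate 1 and 9795 and 37372 in replicate 3.

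By the mean of the 3 libraries, 545 gene rows held 50% of the normalized counts of all gene rows, and 3633 held 90%. Per kb of exon the totals were more concentrated, with 139 rows for 50% and 3310 for 90%. No floor on length was set there, and division by length lifts very short rows. CR40677, of 30 nt, had 1462913 normalized counts per kb. By normalized counts the first row alone held 4.15%, the first 20 rows 13.8% and the first 100 rows 25.9%. Replicate 2 was the most concentrated, needing 494 rows for 50% against 585 in replicate 1 and 555 in replicate 3. Among protein-coding rows alone the numbers were 656, 621 and 627. Most leading rows were shared by all 3 libraries: 8 of the first 10, 18 of the first 20, 90 of the first 100 and 922 of the first 1000. These counts do not measure the order within each set.

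**Figure D2:**
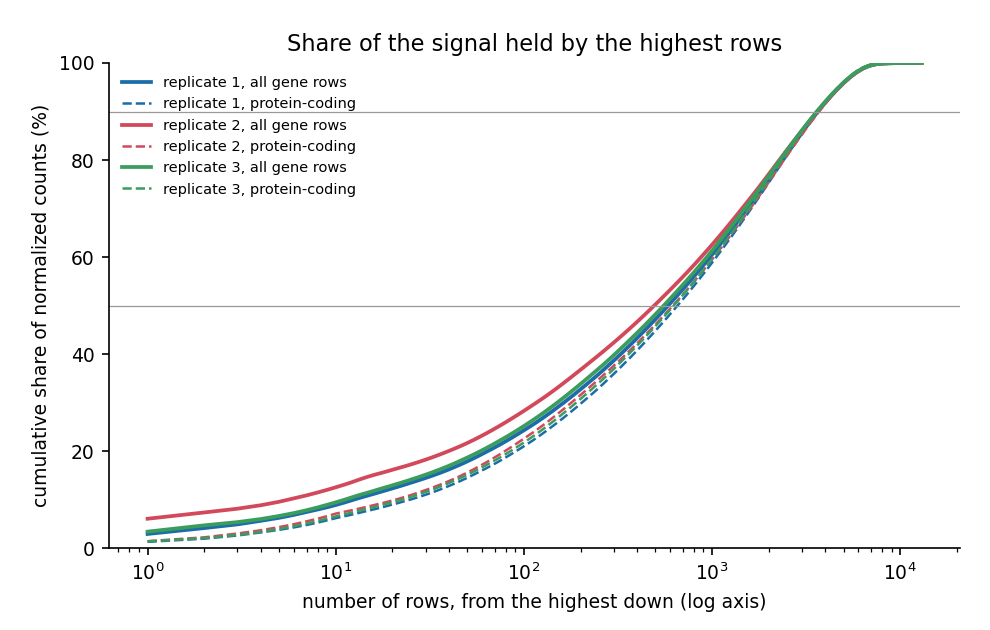
Cumulative share of the normalized counts, in percent, held by the highest rows of each library against the number of rows on a log axis; solid lines are all gene rows and dashed lines protein-coding rows, in blue, red and green for replicates 1, 2 and 3. The solid red line of replicate 2 lies above the others at its left end because its first row holds 6.05% of the counts, against 2.91% and 3.39%, and the dashed lines lie close together.

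The first 20 rows by reads contained 5 non-coding rows (CR41602, both 7SL copies, RNaseMRP:RNA and CR41609) and 15 messenger RNAs. Of the latter, 7 encode the egg's coat or yolk. Yp2 and Yp1, the yolk proteins, had 270731, 329750 and 289241 and 270782, 332138 and 270548 normalized counts. dec-1, which encodes a set of eggshell proteins, had 262448, 273527 and 265003. The first 2 were highest in replicate 2 and dec-1 was close to level. Vm34Ca, Vm26Aa, Cp36 and Cp38 completed the eggshell genes of this group of 20.

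Protein synthesis and folding supplied 4 more. Ef1alpha48D (now eEF1alpha1), which delivers aminoacyl-tRNA to the ribosome, was the highest messenger RNA by reads at 537473, 601764 and 587776 normalized counts. EF2, the translocation factor, had 225086, 254649 and 249241. The chaperones Hsc70-4 and Hsp83 had means of 215365 ± 16487 and 214538 ± 6898 (SD, n = 3). The rest were Act5C, a cytoplasmic actin, at 140030 ± 6907, the translational repressor partners tral at 139473 ± 13127 and me31B at 121588 ± 6076, and CycB, a mitotic cyclin stored in the oocyte, at 113024 ± 2748.

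Levels can be set side by side between genes only per length, and the order changed on that scale. Vm34Ca, an intron-less vitelline membrane gene of 491 nt of exon (2L:13411141-13411631, BDGP6), led the protein-coding genes with 415796, 464763 and 518221 normalized counts per kb. Next came Ef1alpha48D at 233633 ± 13722 and the ribosomal protein gene RpL41 at 216846 ± 20737 (SD, n = 3). Their ranges overlapped between libraries, as did those of the group that followed. That group was Cp36 at 187028 ± 28265, Cp38 at 186804 ± 35050, Vm26Aa at 186782 ± 29997, Yp2 at 183297 ± 18656 and Yp1 at 180730 ± 22031 normalized counts per kb. Cp15, a late chorion gene, followed at 160290 ± 67420, and RpL23 at 153224 ± 6264. The remaining 5 of the first 15 were Cp19 at 111589 and the ribosomal genes RpL21, RpS27A, RpL36 and RpLP1 at 99013 to 110030. So 6 of the first 15 protein-coding genes per kb encoded ribosomal proteins and 8 encoded eggshell or yolk proteins, beside Ef1alpha48D.

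Ribosomal protein genes were concentrated at the top of this order. They were 58 of the first 100 protein-coding genes per kb, 83 of the first 500 and 87 of all 8643 detected protein-coding genes with a length. The first 100 were also short: their median exon length was 1008.5 nt, against 2149 nt over all detected protein-coding genes. This order divides by length and so favours short genes. The first 100 protein-coding genes by normalized count had a median of 1635 nt. Genes without an intron were 8 of the first 100 per kb and 9.33% of all detected ones. Among other RNAs of at least 200 nt the first 5 per kb were the 7SL copies at 1111366 ± 102979 and 1056300 ± 85305, CR41602 at 951599 ± 413705, RNaseMRP:RNA at 444057 ± 71178 and snRNA:7SK at 173110 ± 16211 normalized counts per kb.

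Cytosolic ribosomal proteins took the most reads of the 23 gene lists compared, which together hold 734 gene rows and 28.6% of reads. Its 90 rows took 7.35%, 8.03% and 8.10% of all reads in replicates 1, 2 and 3, and 87 rows were detected. The median member lay at 41752 normalized counts per kb. By reads the highest members were sta, the gene of a small-subunit protein, at 99058, 99093 and 132294 and RpL3 at 77438, 93593 and 94696. The lowest detected member was RpS10a at 20.6, 15.9 and 19.6. Duplicated members differed widely in level: per kb RpS10b stood 403, 588 and 513 times above RpS10a, and RpS19a 1327, 958 and 988 times above RpS19b. The duplicates RpS5a and RpS5b were close, at a ratio of 1.07 ± 0.0914 (SD, n = 3). RpL22-like, RpL37b and RpS28-like were below 10 normalized counts. Of the 85 members with a mean of at least 100, 54 were highest in replicate 2, 30 in replicate 3 and only RpL24-like in replicate 1. Over all 7732 gene rows with a mean of at least 100, 39.3% were highest in replicate 2, 30.8% in replicate 3 and 29.9% in replicate 1.

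Translation factors, which start, extend and end the reading of mRNA, held 3.77% ± 0.0870 of reads over 35 rows, all detected. Ef1alpha48D made up 33.4% of the family and EF2 14.1%. pAbp, the poly(A)-binding protein, came next and was steady, at 102540, 100994 and 99701 normalized counts. The paralog Ef1alpha100E (now eEF1alpha2) was the lowest, at 52.4, 49.7 and 46.9, so that Ef1alpha48D stood 12545 ± 1304 times above it per kb. The 33 aminoacyl-tRNA synthetases, which charge tRNAs, held 0.365% of reads and lay lower, with a median of 1807 normalized counts per kb. Aats-ile had 14809 ± 484, Aats-lys 11972 ± 574 and the mitochondrial enzyme CG4573 353 ± 16.8 normalized counts. The 12 nucleolar proteins of snoRNPs, the partners of the guide RNAs, held 0.319%. Nop60B, the pseudouridine synthase, led with 36430, 38112 and 39057, nop5 had 20310 ± 730, and CG4038 (Gar1) was lowest with 1988 ± 210.

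Proteins for the mitochondrion were read at lower levels. All 73 mitochondrial ribosomal protein genes were detected, but together they held 0.332% ± 0.0115 of reads, with a median of 1950 normalized counts per kb. mRpS5 stood out with 20996, 21297 and 18199 normalized counts, followed by mRpS30 at 6340 ± 507. mRpL34 was lowest at 320 ± 16.2. Nuclear genes of the respiratory chain and ATP synthase held 1.08% ± 0.0461 in 79 rows, of which 70 were detected. CG1746 (ATPsynC) led with 81330, 92177 and 88365 and ATPsyn-beta had 52476, 59992 and 57299, both lowest in replicate 1. CG14508 (Cyt-c1L), a paralog of cytochrome c1, was the lowest detected member at 15.1 ± 2.97. Glycolysis held 0.489% of reads in 13 rows. Gapdh2 had 56691, 64291 and 58349 normalized counts, Eno 41870 ± 2971 and ImpL3, the lactate dehydrogenase gene, only 62.0 ± 15.2. No row of the mitochondrial genome was in the table, so its share was not analysed here.

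**Figure D3:**
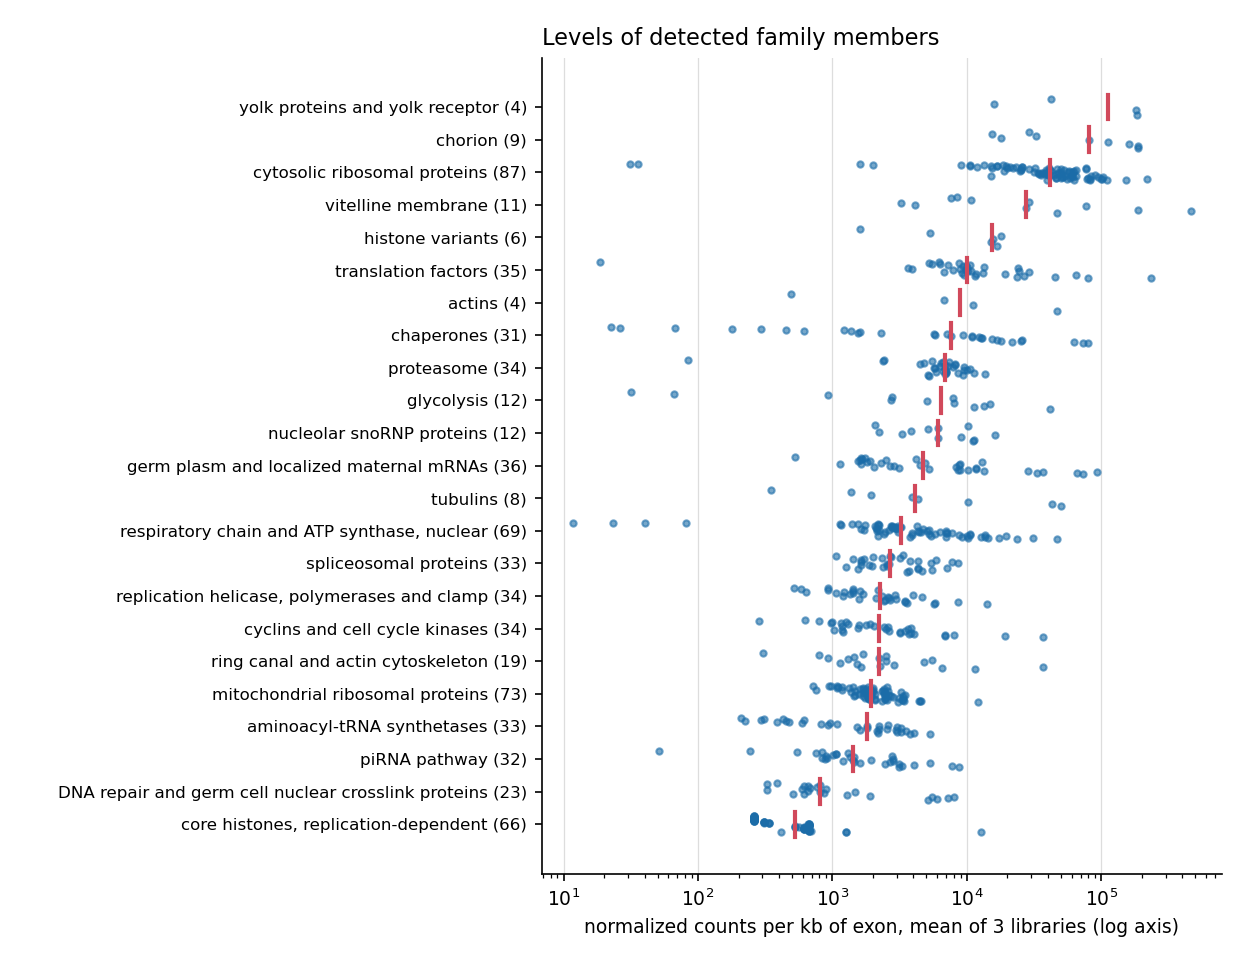
Mean normalized counts per kb of exon of the 3 libraries, on a log axis, for each detected member of 23 gene families; a blue point is a member, a red bar the median, and the number in brackets the members plotted. Yolk proteins, chorion proteins and cytosolic ribosomal proteins have the highest medians, at 111461, 80713 and 41752, and replication-dependent histone rows the lowest, at 526. How reads shared between histone copies were counted is not known.

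The eggshell and the yolk came from few genes. The 9 chorion genes held 1.63%, 1.91% and 1.43% of reads, the 11 vitelline membrane and related eggshell genes 1.73%, 1.75% and 1.91%, and the 3 yolk protein genes with the yolk receptor gene yl 1.60%, 1.79% and 1.65%. All 24 rows were detected. Replicate 2 was highest for chorion and yolk, and replicate 3 for the vitelline membrane genes.

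Chorion genes lie in clusters that follicle cells amplify before transcription. In the cluster on X (X:8470888-8483311, BDGP6) 5 genes span 12.4 kb, and in that on 3L (3L:8726791-8732599) 4 genes span 5.81 kb. The X cluster summed to 475290, 638724 and 489492 normalized counts and the 3L cluster to 250914, 254456 and 162822. All 5 X genes were highest in replicate 2, as were 39.3% of all gene rows with a mean of at least 100. In the 3L cluster replicate 3 was lowest for each of the 4. Cp38 had 203734, 283607 and 212614 and Cp36 186380, 244807 and 194983, both made early in chorion synthesis. Cp15, made at its end, had 112967, 89960 and 44721. Cp15 thus differed between libraries in another order than Cp36 and Cp38: per kb it was 1.31, 0.796 and 0.497 times Cp36 in replicates 1, 2 and 3. Cp18, also late, was 0.501, 0.426 and 0.371 times Cp36. Unlike Cp15, Cp18 was highest in replicate 2, at 54349, 60706 and 42092 normalized counts. Cp19 was 0.627, 0.617 and 0.542 times Cp36 per kb. Cp16 was the lowest chorion gene by reads and the steadiest, at 15482, 15642 and 14340.

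Vitelline membrane genes, which follicle cells read before the chorion genes, divided between libraries as well. Vm34Ca had 204156, 228199 and 254446 normalized counts, and Vm26Aa had 129963, 122864 and 164630. Both were highest in replicate 3, as was Vm26Ab, whereas Vm32E, Vm26Ac, psd and Fcp3C were highest in replicate 2. dec-1 made up 32.6% of the family and had a relative SD of 2.17%. Vm26Ac was lowest at 4966, 6155 and 4708. Among the yolk genes Yp3 was below its relatives: per kb Yp1 was 4.28 ± 0.379 times and Yp2 4.34 ± 0.279 times Yp3 (SD, n = 3). Yp3 was also steadier, at 75928, 81844 and 78670. The germline receptor gene yl had 94455, 93994 and 114508 and was highest in replicate 3.

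Maternal messages of the germline formed another large family. The 36 genes of germ plasm and localized or repressed mRNAs held 3.25%, 2.93% and 3.20% of reads, and all were detected. Replicate 2 was lowest, where the summed normalized counts deviated from their mean by -3.71%, and 20 of 36 members were highest in replicate 3, against 30.8% of all gene rows with a mean of at least 100. Hsp83, whose mRNA is kept in the germ plasm, and tral led by reads. osk, the organiser of germ plasm, had 83531, 71338 and 91599, nos, the posterior determinant, 27735, 27842 and 26260, and bcd, the anterior determinant, 6419, 6294 and 6431. The dorsal signal gene grk was the lowest member at 804, 862 and 1057. Per kb the highest member was dhd, a germline thioredoxin, at 93296 ± 4679, followed by Hsp83 at 72479 ± 2330 and me31B at 65902 ± 3293.

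The piRNA pathway uses small RNAs to keep transposons quiet in germ cells, and its genes were all detected too, but lower. The 32 genes held 0.440% ± 0.0183 of reads, with a median of 1431 normalized counts per kb against 4680 for the maternal list. tud had 29249, 23572 and 29604 and vas, the germline helicase, 20295, 18171 and 21868, both lowest in replicate 2. The Argonaute genes piwi and AGO3 had means of 12515 ± 341 and 7860 ± 531 normalized counts, and aub had 5871, 5781 and 5871. fs(1)Yb, which acts in somatic cells of the ovary, was the lowest at 153, 152 and 237. Repair and crosslink genes held 0.384% over 23 rows, all detected. Top1, a DNA topoisomerase, had 32351 ± 1057, Top2 31164 ± 2178 and spn-B, a meiotic recombination gene, 532 ± 13.5.

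Cell cycle genes were among the steadiest families by summed normalized counts. The 34 cyclins, kinases and regulators held 0.866% ± 0.0321 of reads, and the summed normalized counts had a relative SD of 1.32%. CycB had 110014, 113662 and 115397 and CycA 58228, 53696 and 54874, a ratio per kb of 1.95 ± 0.122 in favour of CycB. CycC, a partner of a transcription kinase, was lowest at 714 ± 9.69. Of the phosphatase pair, stg stood 3.02 ± 0.150 times above twe per kb. Replication genes held 0.426% over 35 rows, led by the ribonucleotide reductase subunits RnrS at 22287 ± 845 and RnrL at 14611 ± 684 normalized counts. Psf2 of the GINS complex was lowest at 448 ± 17.0.

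Counts on histone rows were low for the canonical set and higher for the variants. The 74 rows of replication-dependent histones held 0.0531% ± 0.00311 of reads, or 0.0263% where rows with identical reads were counted once. They carried 22 distinct read patterns, since repeated copies have identical counts and cannot be told apart. How reads shared between copies were counted is not known, so the level of this set, and its place below the variants, is uncertain. His2B:CG33868 had 7454, 8575 and 6800, far above the next rows, the identical His1:CG33846 and His1:CG33849 at 1286, 1382 and 1222. His4:CG33891 and its copies were the lowest detected at 117, 101 and 105. The 6 variant genes held 0.225% ± 0.00669. His3.3B, a replacement histone, led with 42582, 43935 and 42537, and BigH1, the linker histone of the early embryo, had 20176, 20111 and 17819. cid, the centromere histone, was lowest at 1633 ± 164.

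Each cytoskeletal family was dominated by its general isoforms. Act5C made up 82.0% of actin reads at 134458, 147757 and 137873, and Act42A had 17213, 19579 and 17416. The muscle actins moved differently: Act57B had 8183, 11438 and 15408 and Act87E, the lowest detected actin, 608, 844 and 1494. Both were highest in replicate 3. So were 8 of the 10 muscle markers, Act57B among them, against 30.8% of all gene rows with a mean of at least 100. Tm1, the highest of the 10 markers, was not, at 30890, 29665 and 30425. The part of muscle RNA in these values was not tested. Act88F and Act79B of flight and tubular muscle stayed below 10 in at least 1 library. Of the tubulins alphaTub84B had 79664, 92427 and 89976 and betaTub56D 76932, 80932 and 84435, with betaTub97EF the lowest detected at 656 ± 171. The maternal isoform alphaTub67C lay 4.91 ± 0.118 times below alphaTub84B per kb. In the other direction, gammaTub37C, the maternal gamma-tubulin, was 2.84 ± 0.150 times above gammaTub23C. The testis gene betaTub85D had 2.81, 5.29 and 9.81 normalized counts. Ring canal and actin regulators held 0.500%, led by chic (profilin) at 30372 ± 572 and Moe at 29599 ± 2339, with capu lowest at 1914 ± 94.9.

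Folding, turnover and splicing were also prominent. Chaperones held 2.20% ± 0.0645 of reads over 32 rows. The constitutive Hsc70-4 and Hsp83 were highest, at 79295 ± 6070 and 72479 ± 2330 normalized counts per kb, and Hsp26, also read in the germline without stress, had 62235 ± 4107. The inducible Hsp70 copies were lower, summing to 12839, 11600 and 17354 normalized counts, of which Hsp70Bbb had 52.6 ± 4.68. Proteasome genes held 0.698% ± 0.0227, with 34 of 42 rows detected and 32 of those 34 highest in replicate 2, against 39.3% of all gene rows with a mean of at least 100. Rpn2 had 17675 ± 673 and Rpn5 17662 ± 1062, and the paralog Rpt3R was lowest at 122 ± 13.4. The 33 spliceosomal protein genes held 0.428%. By normalized counts they ran from Prp8, the core of the spliceosome, at 26790 ± 1159 and CG13900 (Sf3b3) at 19951 ± 1699 to CG11985 (Sf3b5) at 1237 ± 122. Per kb SmG was highest at 8564 and Prp31 lowest at 1069.

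The 3 libraries were close for most genes. Over the 7732 gene rows with a mean of at least 100 the median relative SD was 5.76%, where counting alone would give 2.11%. It fell with level, from 24.3% for means of 10 to 100, through 8.51% to 5.03% for means of 1000 to 10000, and was 6.10% above 10000. In the lowest band counting alone gave 19.5%, so most of the spread there could not be distinguished from counting error at this depth. Above 10000 counting gave 0.773%, so depth did not limit those values. From pairs of libraries, where the SD rests on fewer values, the median was 5.25%, 3.97% and 4.996% with replicates 1, 2 and 3 left out. In the band of 1000 to 10000, the median was 5.02% for 4723 messenger rows, 5.16% for 21 small nucleolar rows, 7.50% for 18 long non-coding rows and 8.57% for 10 snRNA rows.

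**Figure D4:**
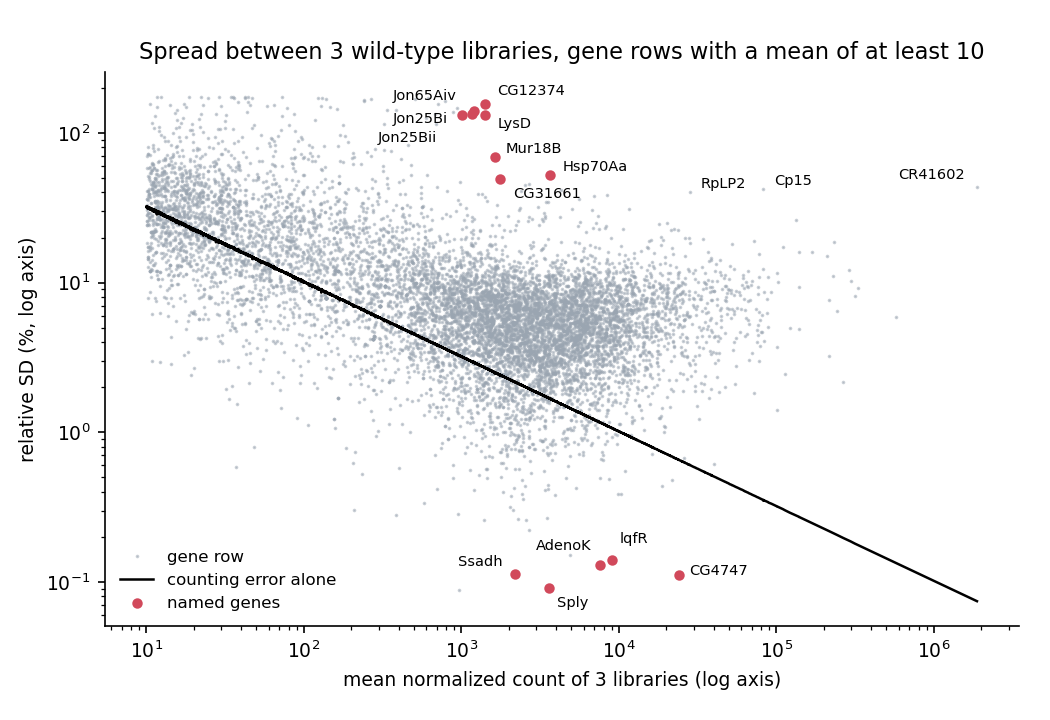
Relative SD of the 3 libraries in percent against the mean normalized count, both on log axes, for gene rows with a mean of at least 10; grey points are rows, the black line is the relative SD that counting error alone gives, and red points are the 8 most and 5 least variable rows with a mean of at least 1000. Most rows above a mean of 1000 lie near 5%, and the digestive enzyme genes and LysD lie above 100%.

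The summed levels of families differed between libraries. Summed normalized counts of cytosolic ribosomal proteins deviated from their mean by -8.24%, 5.10% and 3.14% in replicates 1, 2 and 3. The respiratory chain, tubulins, translation factors, chaperones and aminoacyl-tRNA synthetases also had their lowest sums in replicate 1, with deviations of -7.10% to -4.63%, though 5 of 34 translation factors with a mean of at least 100 were highest there. Maternal germ plasm genes, the piRNA pathway, ring canal genes, cyclins and repair genes had their lowest sums in replicate 2, with deviations of -4.68% to -1.40%. These are sums weighted to the abundant members and not shifts of every gene: 17 of 34 cyclins and cell cycle kinases and 15 of 32 piRNA genes were highest in replicate 2. Over all gene rows with a mean of at least 100, 39.3% were highest in replicate 2 and 29.9% in replicate 1. Chorion had the widest spread, with deviations of 18.0% in replicate 2 and -13.9% in replicate 3 and a relative SD of 16.3%. By summed counts cyclins, the piRNA pathway and ring canal genes had the narrowest, at 1.32%, 1.78% and 1.90%. As shares of reads the order of the steadiest differed, with 0.866% ± 0.0321 for cyclins against 3.77% ± 0.0870 for translation factors.

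**Figure D5:**
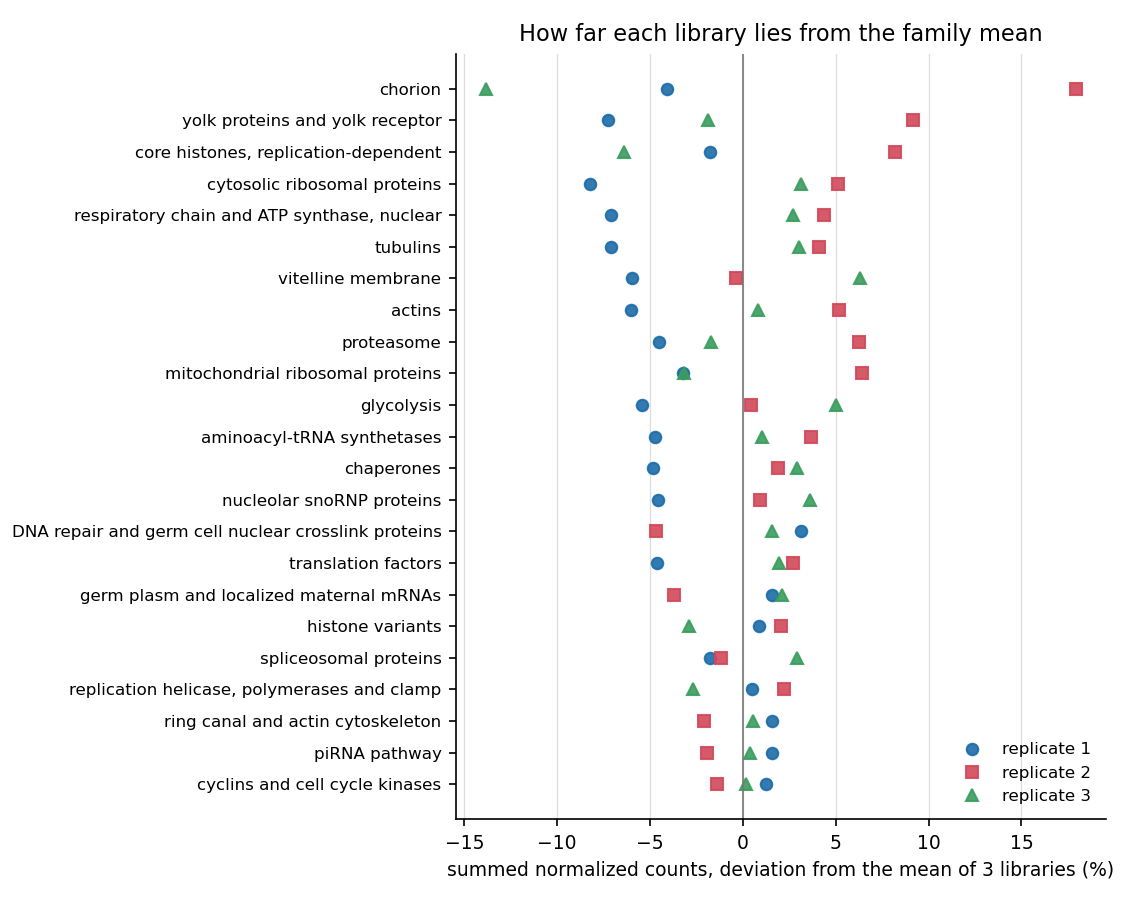
Deviation of each library's summed normalized counts from the mean of the 3 libraries, in percent, for 23 gene families ordered by their spread; blue circles, red squares and green triangles are replicates 1, 2 and 3. Chorion reaches from -13.9% to 18.0%, whereas cyclins lie between -1.40% and 1.23%.

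Rows with a wide spread were few. Of 5675 rows with a mean of at least 1000, 84 had a relative SD over 20% and 7 over 50%. Of these 7, 5 were highest in replicate 2 and encode proteins of digestion, and they reached a mean of 1000 only through that library. CG12374, a carboxypeptidase-like gene, had 218, 3949 and 52.3 normalized counts, and the Jonah proteases Jon65Aiv 317, 3135 and 134, Jon25Bi 360, 2984 and 187 and Jon25Bii 286, 2561 and 192. The lysozyme gene LysD had 622, 3547 and 88.3. In each the value of replicate 2 was many times the others. The 16 Jonah rows together summed to 1542, 18358 and 771, and in replicate 2 they held 0.0392% of reads. All 14 with a mean of at least 10 were highest in replicate 2. Over all gene rows the share highest there was 33.3% for means of 10 to 100 and 39.3% for means of at least 100. Rows could pass this filter through replicate 2 alone, as Jon65Ai did at 0.935, 141 and 0, so the count of 14 is partly built in. The gut marker list, which includes Jon25Bi, moved with the Jonah rows (922, 7117 and 447), with Amy-p at 1.87, 409 and 4.36. The part of gut RNA in other results of replicate 2 was not tested.

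The other rows over 50%, and the eighth of the list, had other patterns. Mur18B, a mucin-related gene, had 2898, 1256 and 751 in replicates 1, 2 and 3. CG31661 had 2525, 1950 and 820. Both were lowest in replicate 3, as was Cp15. Hsp70Aa had 1616, 3997 and 5408, but its near-identical copy Hsp70Ab had 6465, 3997 and 6009, equal to it in replicate 2. The sum of the copies was 8081, 7995 and 11417, a relative SD of 21.3% in place of 52.2% for Hsp70Aa alone. The division of reads between these copies is therefore uncertain.

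At the other end, the 5 steadiest rows with a mean of at least 1000 were Sply, CG4747 (Ndf), Ssadh, AdenoK and lqfR. Sply, a sphingosine phosphate lyase, had 3599, 3604 and 3598 normalized counts, a relative SD of 0.0910%. CG4747 had 24047, 24002 and 24000. These spreads lie below those that counting alone gives, 1.69% for Sply and 0.654% for CG4747, so at this depth the rows cannot be told from others of their level that are steady to within counting error.

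Most genes of the table were read in the ovary. At least 10 normalized counts in every library were found for 9244 of 13000 gene rows (71.1%), among them 8676 of 11588 protein-coding rows (74.9%). At least 1000 were found for 5536 rows and at least 10000 for 829. No read fell on 307 rows, and 1990 had 1 to 10 reads over the 3 libraries. By chromosome arm, and with ribosomal rows left out, X held 20.4% ± 0.152 of reads (SD, n = 3), 3R 24.2% ± 0.0616 and the small chromosome 4 1.35% ± 0.0498. The share of rows detected was 74.6% on X and 69.5% to 71.5% on the arms of chromosomes 2 and 3. On chromosome 4 it was 80.6% of 98 rows. The median detected protein-coding gene lay at 898 normalized counts per kb on X and at 850 to 942 on the autosomal arms 2L, 2R, 3L and 3R. The 2 rows of the Y chromosome had 8 reads in all.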

How the data were processed

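Total RNA of ovaries was depleted of ribosomal RNA and sequenced strand-specifically, per the labels' protocols. CASAVA 1.8.2, STAR 2.5, DESeq2 and the build dm6 are named in the submitters' processing notes. Not given in the sources used here are the annotation, the counter and whether counting took strand into account. The values form a signal, deposited by the authors as normalized counts.

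Each value was a whole multiple of 1 step per library (100% of values within 1e-06), as read counts divided by a factor per library would be, and this gave back the reads. No count test was run, because a single group was used. Columns of 3 other libraries were not used.

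Rows were matched to Ensembl 115 (BDGP 6, the same build as dm6) by symbol, locus tag or synonym. This placed 12903 of 13000 gene rows (99.3%), of which 6661 (51.6%) overlap another gene, so reads of overlapping or antisense genes are uncertain. Levels per kb were divided by the union of exons. A row was called detected at 10 normalized counts or more in every library. The relative SD of counting error was computed from the recovered reads.

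The genes named are the first 20 by mean and the first 15 coding and 5 other genes per kb. From each gene list they are the 2 highest and the lowest detected members by mean, and from each marker list the 2 highest. The 8 most and 5 least variable rows with a mean of at least 1000 were also named. Other members, and the leading rows of classes and repeats, were named after their values were seen. The rule, the gene lists and the marker lists were chosen with earlier results of these data known. From the lists 7 entries were removed as errors once the files were read. The lists held 734 gene rows and 28.6% of reads.

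Python 3.11.15, pandas 2.3.3, numpy 2.4.6, R 4.3.3 and edgeR 4.0.16 were used, the last only for an alternative estimate of spread. The spread calculations were tested on simulated data. Between 41799533 and 47726399 reads per library set the precision, and counting error covers no other source of error. Alternatives were other denominators, filters, class rules and spread measures, and each library left out.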

Additional observations from a re-analysis of the deposited data

How the results depend on the processing

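No paired analysis was possible because a single group was used and no contrast was tested. Of 157 values for single classes and families under other settings, 135 moved by less than the spread between libraries. The other 22 included all 19 with protein-coding rows only in the denominator. The 157 also held 30 values for each library left out. Those could not move by more than that spread, because the mean of the remaining libraries always lies within it. They are therefore no measure of stability. With classes taken from symbol prefixes alone, the ribosomal RNA share was 0.000275%, and the long non-coding share was 4.797% in place of 0.349%, because the ribosomal pseudogene rows carry general names. Counting rows with identical reads once gave the replication-dependent histones 0.0263% in place of 0.0531%. With protein-coding rows only in the denominator, cytosolic ribosomal proteins took 8.52%, vitelline membrane genes 1.95% and yolk genes 1.83%. Per kb of exon, with no floor on length, 139 rows held 50% of the total. The median relative SD of 5.76% ranged from 3.97% to 5.25% with each library left out. It was 9.36% with no filter, 6.93% for means of at least 10 and 5.08% with the counting part removed, and edgeR's common biological coefficient of variation was 11.97%. Of the first 15 and the first 100 protein-coding genes per kb, 8 and 49 overlap no other gene. Over all matched gene rows 51.6% overlap another gene, and the order was not ranked again without them. These counts therefore do not show whether the ranking depends on overlap. The number of rows over 20% ranged from 79 to 124 around 84 with each library left out, an alternative chosen after seeing the data. Depth limits values below a mean of about 100, where counting error alone gave a median of 19.5%.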
